A study of Mus musculus with 4 samples.

Results

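The comparison set 1 y-organoid array against 1 crypt array, 2 of the 4 arrays of the series. Both RNAs came from wild type mice of the strain C57/BL6. The y-organoid sample is labelled as crypt-villus organoid, an epithelial structure grown in culture, and the crypt sample as crypt, the epithelial pit of the gut wall. Labelling began with 20 ng of total RNA for each. The other arrays, given here only side by side, held a second crypt-villus organoid sample named o-organoid (40 ng) and whole intestine (20 ng). What y and o stand for, the age and sex of the mice, how many mice gave each RNA and the culture medium are not stated in the labels. The members are all genes read by spots other than controls, 30107 in all, of which 14847 were well above background on both arrays, 1487 on y-organoid alone, 769 on crypt alone and 12916 on neither. The other 88 lacked a value from which a bound could be set. There is 1 array a side, so every difference compares 2 arrays and has no replicate check, no test and no error between groups.

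The small intestinal crypt holds dividing Lgr5 stem cells among Paneth cells, which feed and protect them with signals and antimicrobial peptides. Above them, offspring leave the cycle and become absorptive enterocytes or secretory goblet, enteroendocrine and tuft cells. Organoids keep this order in culture without connective tissue, vessels or microbes, and are usually fed with epidermal growth factor, Noggin (a blocker of bone morphogenetic protein, BMP) and R-spondin, which strengthens Wnt signalling. Whether these organoids were fed so is not stated in the labels.

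Each signal is a log2 value relative to the 75th percentile of spots on its array, at an intensity of 281.1 on y-organoid and 469.3 on crypt, and each difference is y-organoid minus crypt. A gene that was not well above background on 1 array has only a bound, written as at least N-fold, against the higher of its own signal there and the lowest signal well above background, -4.20 on y-organoid and -4.52 on crypt. Spots of repeated probes gave a difference between the 2 arrays a technical SD of 0.16 from the median probe, which leaves out labelling and hybridisation. That value joins the median SDs of the single arrays, 0.108 on y-organoid and 0.122 on crypt. The root mean square SD within a single array, which dim probes weigh on, was larger, at 0.278 on y-organoid and 0.282 on crypt. A difference takes in the spread of both arrays, so its SD by this measure is larger than either value. Repeated probes with signals below -2 had a median SD of 0.295 on y-organoid and 0.274 on crypt, so dim genes are less precise. Of the genes measured on both, 10485 (70.6%) differed by under 2-fold, and Pearson's r between the arrays was 0.916 across genes, which do not count as replicates. At least 4-fold higher on y-organoid were 592 genes (3.99%), and 591 (3.98%) were at least 4-fold lower. The split depends on the scaling: it was 291 higher and 1057 lower with each array scaled by its median, 257 and 444 after normexp background correction, and 80 and 4403 with the spike-in control RNAs as the scale. Median scaling lowered every difference by 0.51 and spike-in scaling lowered it by 1.60, so the signs below are relative to the 75th percentile. A list median between 0 and 0.51 therefore turns negative with median scaling, and any up to 1.60 turns negative with the spike-in scale.

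The y-organoid array differed from the other arrays in a way tied to probe sequence. On it 359 probes were at least 4-fold brighter than on each other array, against 61 on o-organoid, 76 on crypt and 1830 on intestine. Of 162 probes with 4 or more GA units in a row, 55 (34.0%) were among the 359, against 304 of 39246 (0.775%) of the other probes. The median excess of y-organoid over the brightest other array was 0.08 at 3 GA units, 0.44 at 4, 1.93 at 5 and 5.06 at 6. Runs of 4 or more TC units, the opposite strand, had 0 of 114 probes brighter on y-organoid alone, with a median of -0.63. For CA runs the count was 0 of 192, with a median of 0.35 that was 0.54 at 7 or more units, where 39 of 41 probes were above 0. For GT runs it was 2 of 305, with a median of 0.08. The limit of 4 units was chosen after these values were seen. Windows of 4 such probes, 30 bases each with the longest GA run in capitals, are shown because they carry this pattern.
Klra1 probe, bases 3 to 32, probe at chr6:130314070-130314129 of mm9: cagtgcaaaGAGAGAGAGAGAaaatctgga
Ddx25 probe, bases 5 to 34, probe at chr9:35349535-35349594 of mm9: aatattgaaGAGAGAGAGAGAagagaggcc
Rabgap1 probe, bases 23 to 52, probe at chr2:37351140-37351199 of mm9: gagtgagtcAGAGAGAGAGAGgaggaaaac
Gbp6 probe, bases 27 to 56, probe at chr5:105700056-105700115 of mm9: tgtgtaaagGAGAGAGAGAGAtcttggtgc
The Klra1 probe, for a receptor of natural killer cells, had a signal of 3.82 on y-organoid and -3.65, -2.63 and -3.28 on o-organoid, crypt and intestine. Ddx25, a testis helicase, had 4.74 on y-organoid and -2.66, -1.53 and -1.60 on o-organoid, crypt and intestine. Rabgap1, a GTPase-activating protein, differed by 5.83 through the probe shown and by 1.92 through its other measured probe. Cd300lf, a myeloid receptor, differed by 5.99 through a GA probe, while the median of its 2 other measured probes was -1.01. Among the 592 higher genes, 28 were read by a GA-repeat probe and 94 by a probe brighter on y-organoid alone, 100 by at least 1 of these. Without GA-repeat probes 564 genes were higher, and without probes brighter on y-organoid alone 500. Such genes are named below as read by such a probe. Among probes without a GA repeat, the share brighter on y-organoid alone was 0.445% at 40 to 50% purine bases (A or G) and 3.24% at 70% or more. For those measured on both arrays, the median difference from crypt was 0.07 and 0.47 in these classes. By G and C content it was -0.25 below 30% and 0.43 at 60% or more. Differences below are not corrected for probe composition.

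**Figure D1:**
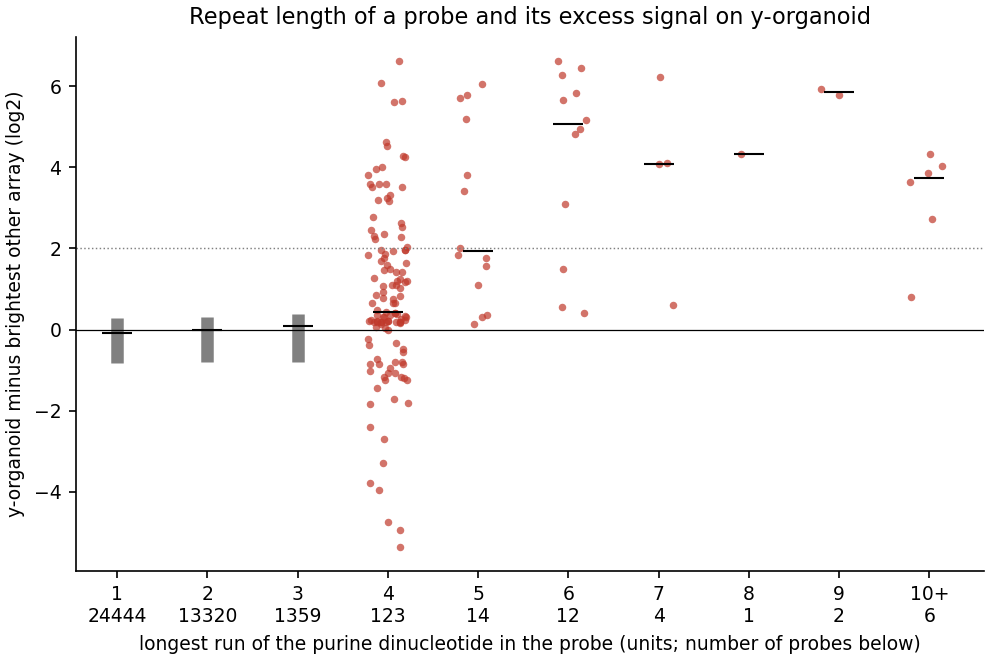
Each point is a probe with at least 4 units of the purine dinucleotide in a row, placed by its longest run (x axis, units, with the number of probes) and by its log2 signal on y-organoid minus that on the brightest other array (y axis). Grey bars span the middle quartiles of probes with shorter runs, black dashes are medians and the dotted line marks 4-fold. The median was 0.08 at 3 units and 5.06 at 6 units.

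The largest differences named here leave out GA-repeat probes. Areg, which encodes the epidermal growth factor receptor ligand amphiregulin, had a signal of 4.05 on y-organoid and -2.30 on crypt, 81.4-fold higher. Its probe was also brighter on y-organoid alone, with 0.90 on o-organoid. Emp2, a membrane protein of epithelia, had 2.65 and -3.44, a difference of 6.09. Both genes stood below the 75th percentile on crypt and above it on y-organoid. Pip5k1a, a lipid kinase, differed by 5.50 through its brightest probe, but its 2 other measured probes had a median difference of 0.01, so its value is uncertain. Emid1 followed with 5.42, Slamf9 with 5.10, the collagen prolyl hydroxylase subunit P4ha2 with 4.82, the actin regulator Inf2 with 4.71, and the fucosyltransferase Fut1 and the cardiac myosin Myh7 with 4.60 each, Myh7 through a probe brighter on y-organoid alone. Among genes not well above background on crypt, Myl9, a myosin light chain, was at least 222-fold higher, Stc2, a secreted glycoprotein, at least 153-fold and Chac1, which degrades glutathione, at least 123-fold.

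The largest negative differences followed. Reg3b, a secreted antimicrobial lectin, had a signal of -2.58 on y-organoid and 6.69 on crypt, 618-fold lower. Lct, the lactase of the brush border, had -1.66 and 7.2, 462-fold lower. Cyp2b10, a drug-metabolising cytochrome P450, had -1.15 and 6.76, a difference of -7.91. All 3 stood above the 75th percentile on crypt and below it on y-organoid. H2-Ab1, a chain of MHC class II, had a difference of -7.76, Zg16, a goblet cell lectin, -7.24, the sodium-sugar transporter family member Slc5a11 -7.07 and the nuclease Dnase1 -7.02. The retinol carriers Rbp2 and Rbp7 had -6.86 and -6.50, and Pdzk1, a scaffold under the brush border, -6.36 with -6.46 in its other probe. Of those below background on y-organoid, Apol10a was at least 289-fold lower and Cubn, the receptor for intrinsic factor and cobalamin, at least 161-fold. Pck1, the first enzyme of glucose synthesis from oxaloacetate, had a bound of -7.21.

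**Figure D2:**
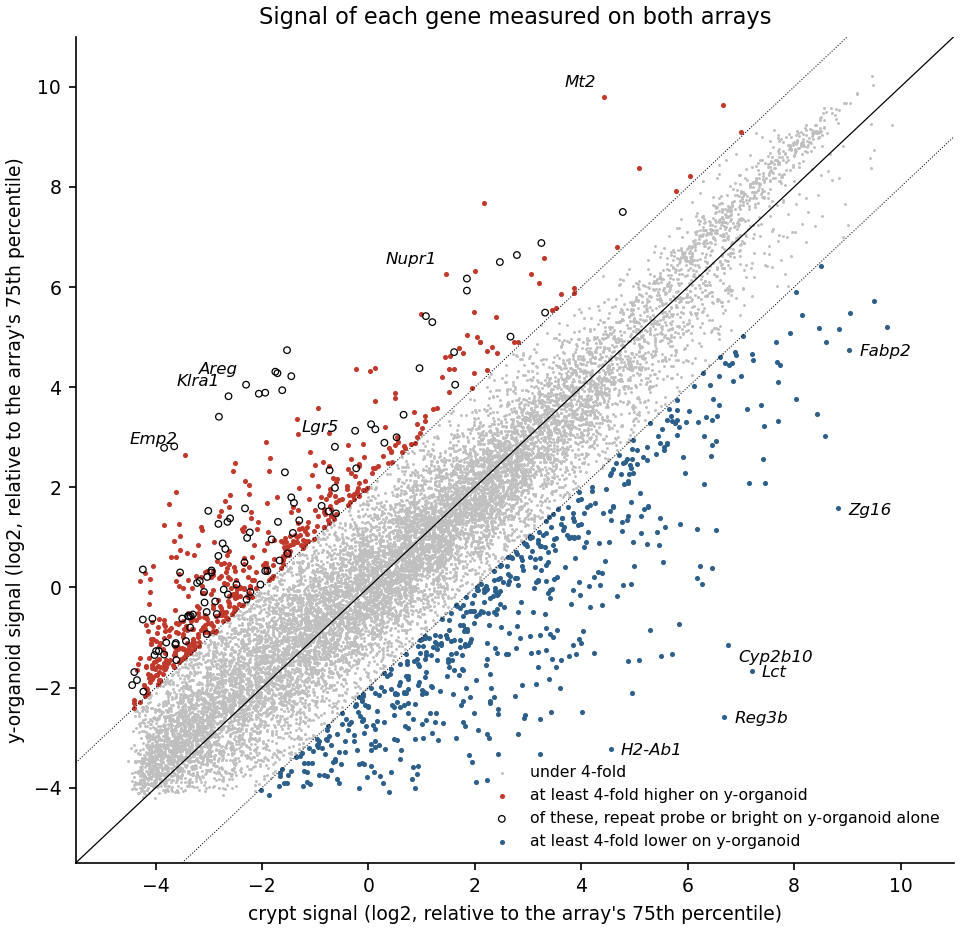
Each point is 1 of the 14847 genes well above background on both arrays, by its log2 signal on y-organoid (y axis) and on crypt (x axis), each relative to the 75th percentile of its array. Dotted lines mark 4-fold, and black rings mark higher genes read by a repeat probe or by a probe brighter on y-organoid alone. The 592 higher and 591 lower genes lie outside the dotted lines, with Reg3b and Lct farthest below the diagonal.

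Genes were then read in 76 lists. Over all 17103 genes that were measured on either array (14847 on both, the rest with a bound), 3168 (18.5%) lay 2-fold or more higher on y-organoid, 2280 (13.3%) lay as far lower, and the median difference was 0.16. Each list is read beside these values. In the list counts, measured means well above background on either array, and higher and lower mean by 2-fold or more. The RNA was taken from whole samples, so fewer cells of a type and less RNA per cell cannot be told apart.

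Both arrays carried the marks of epithelium. All 18 pan-epithelial markers were well above background on both, with 3 higher and 5 lower. The keratins Krt8 and Krt18 of simple epithelium had 7.02 and 7.80 on y-organoid and 7.79 and 6.47 on crypt. Krt20, a keratin of mature villus cells, had 2.08 and 7.16, a difference of -5.09, and Vil1, the actin bundler villin, had 4.22 and 7.0. Markers of connective tissue were almost all below background on both arrays: 12 of 14 were dim on both, among them the collagens Col1a1, Col1a2 and Col3a1. For smooth muscle 7 of 12 were dim on both, among them Acta2, Myh11 and Des, and the summed linear signal of that list was 5.10 on y-organoid and 5.55 on crypt. The blood vessel list summed to 14 on y-organoid and 5.77 on crypt. Most of both sums came from Egfl7, an endothelial secreted factor, at 2.42 and -0.18, and Kdr, the main receptor for Vegfa, at 2.94 and 2.11. Of 7 measured vessel genes 3 were higher and 0 lower, and Plvap differed by 0.0. The vessel genes Cdh5, Tek, Tie1, Emcn and Eng were dim on both arrays. The part of such cells in the results below was not tested.

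**Figure D3:**
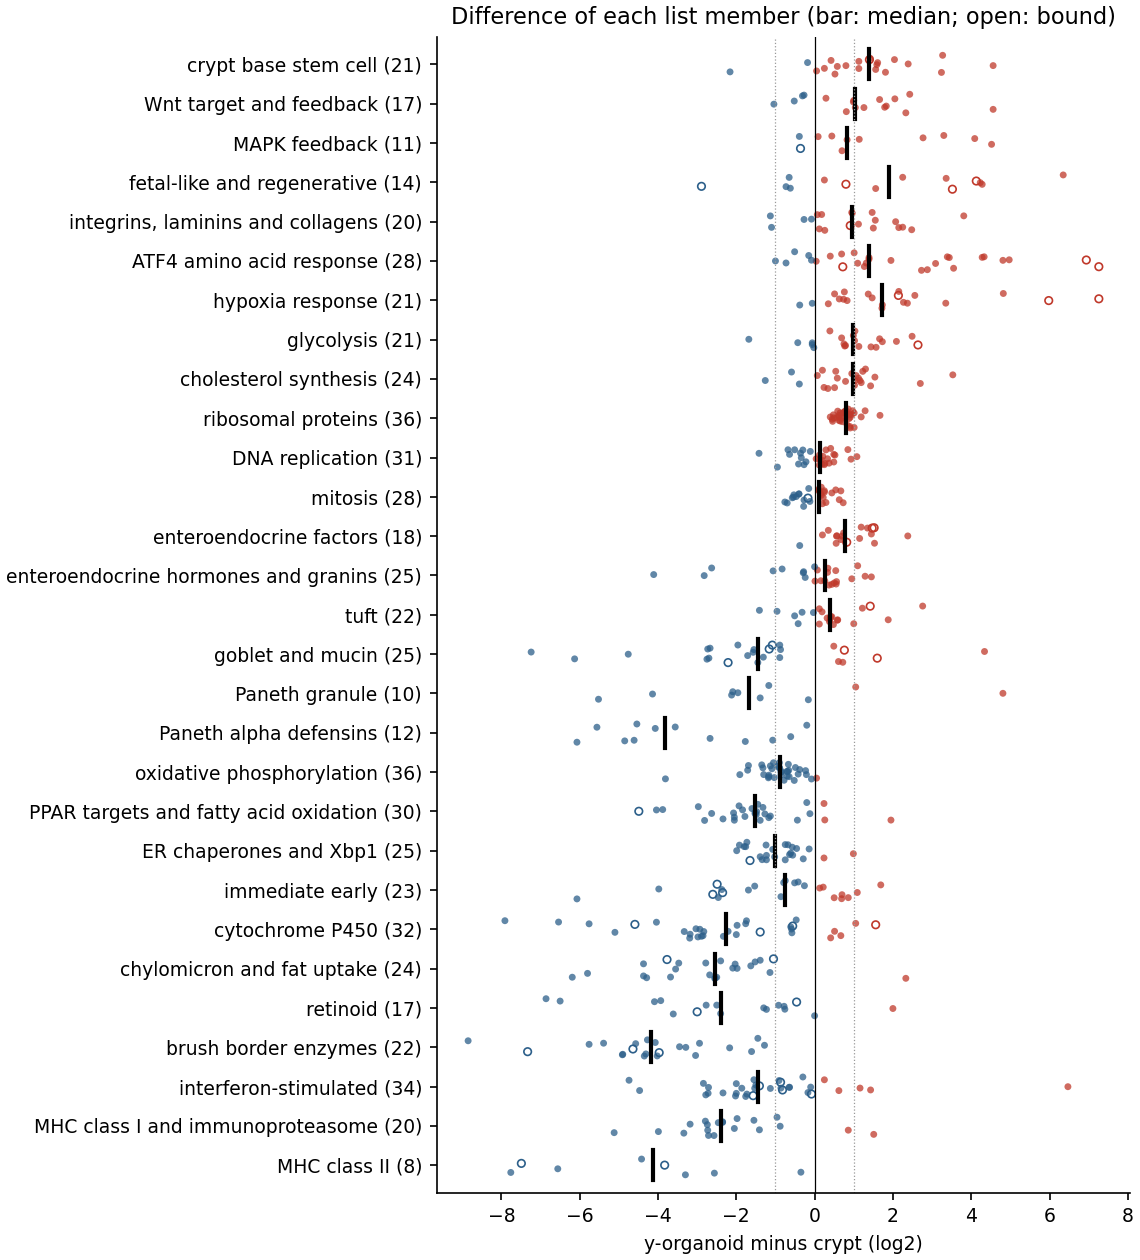
Each point is a measured member of a list (number in brackets), by its log2 difference, y-organoid minus crypt. Open points are bounds, black bars are medians and dotted lines mark 2-fold. The brush border list has all 22 points left of the lower dotted line and the mitosis list has all 28 points between the 2 lines.

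Stem cell genes were higher on y-organoid. Of 21 crypt base stem cell genes, all measured, 13 were higher and 1 lower, with a median difference of 1.40. Lgr5, the receptor for R-spondins that names these stem cells, had a signal of 2.85 on y-organoid and -0.39 on crypt, 9.48-fold higher, with 2.32 on o-organoid and -1.75 on intestine. Both organoid arrays were thus above crypt, and crypt above intestine. Tnfrsf19, a Wnt-induced receptor also called Troy, had 1.02 and -3.54, and its other probe differed by 3.04 where the first differed by 4.56. Soat1, which esterifies cholesterol, differed by 3.27, the RNA-binding protein Mex3a by 2.39 and the matrix protein Smoc2 by 1.61. The exception was Msi1, the RNA-binding protein Musashi, with -0.65 and 1.51. In the list of reserve stem cell genes, the median was -0.03: Tert and Bmi1 had differences of -0.04 and -0.08, and Clu, a chaperone of revival stem cells, had 4.23.

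Wnt feedback genes were higher as well. Of 17 measured, 10 were higher and 1 lower, with a median of 1.04, and 1 of them, Tnfrsf19, also counts in the stem cell list. Axin2, a feedback inhibitor of beta-catenin and a standard Wnt readout, had -0.16 on y-organoid and -2.59 on crypt. The ubiquitin ligases Znrf3 and Rnf43, which clear Wnt receptors from the surface, differed by 1.79 and 1.26, the transcription factor Tcf7 by 2.33 and the oncogene Myc by 1.83. Notum, a secreted enzyme that inactivates Wnt, was the lower one, with -1.04. Wnt ligands were mostly dim, 16 of 25 genes of that list on both arrays, and Sfrp5, a secreted Wnt antagonist, had -0.17 and 2.35. In the Notch list 4 of 18 were higher and 2 lower: Atoh1, the factor that commits cells to the secretory lineage, had -1.31 and -0.06, while Hes5, a Notch target, differed by 1.67 and the ligand Jag2 by at least 2.86.

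Receptors of the pathways that shape the crypt were read next. Of 12 Frizzled and Lrp genes, the Wnt receptors, 3 were higher and 1 lower: Fzd2 differed by 1.25 and Fzd1 by -1.12. In the Hedgehog list 2 of 6 were higher, the receptor Ptch1, itself a target of the pathway, with -1.55 on y-organoid and -3.29 on crypt, and Smo, the signal transducer, with 2.18 and 1.17. The ligand Ihh, made by epithelium, had 3.75 and 3.42. Eph receptors and ephrins, which sort cells along the crypt, had 3 of 15 higher and 2 lower. Epha7 was higher by at least 2.32, Epha1 and Efnb2 had differences of -1.61 and -1.09, and Ephb3, a Wnt-driven receptor of crypt cells, 0.52.

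Some genes of growth factor feedback also stood high. Etv4, a transcription factor induced by ERK signalling, had 3.59 on y-organoid and -0.94 on crypt, and both of its probes differed alike, by 4.52 and 4.61. Dusp4, a phosphatase that switches ERK off, had 0.68 and -3.41, and Phlda1 and Etv5 differed by 3.30 and 2.77. Of 11 measured members of this list 5 were higher and 0 lower. The receptors Egfr, Erbb2 and Erbb3 had differences of -0.06, -0.51 and -0.40, and the ligand Btc differed by at least 2.54. Of 14 measured BMP and Id genes 5 were lower and 3 higher, with a median of -0.15. Id3 and Id1, inhibitors of differentiation factors and direct BMP targets, had -1.0 and 1.09 on y-organoid and 2.85 and 3.34 on crypt, and the feedback Smads Smad6 and Smad7 had bounds of -2.89 and -2.77. Higher were Bmp7, a BMP ligand, by 2.0, the receptor Bmpr2 by 1.47 and Nog, which encodes Noggin, by 1.19. In the TGF-beta list the matrix protein Tgfbi had -0.87 and 4.04, while Tgfbr2, a TGF-beta receptor, differed by 2.61, with 4.44 in the other probe.

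Genes of fetal-like and regenerating epithelium were high on y-organoid: 8 of 14 measured were higher and 1 lower, with a median of 1.91. Ly6a, the surface protein Sca-1, had 0.74 on y-organoid and -3.54 on crypt, with -0.48 on o-organoid and 2.40 on intestine. Anxa3 had 0.21 and -3.15, Anxa1 was higher by at least 3.52 and Msln, mesothelin, by at least 4.13. The largest difference in the list, 6.35, was that of Areg, through a probe brighter on y-organoid alone. Areg also counts in the list of epidermal growth factor ligands, and Anxa1 in that of reserve stem cell genes. Il33, an alarm cytokine, was the lower one, with a bound of -2.89. Intestine stood above crypt for Ly6a as well. In the YAP and TEAD list 7 of 14 were higher and 0 lower, with F3, tissue factor, at 2.78 and the transcription factors Tead1 and Tead2 at 1.96 and 1.74.

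**Figure D4:**
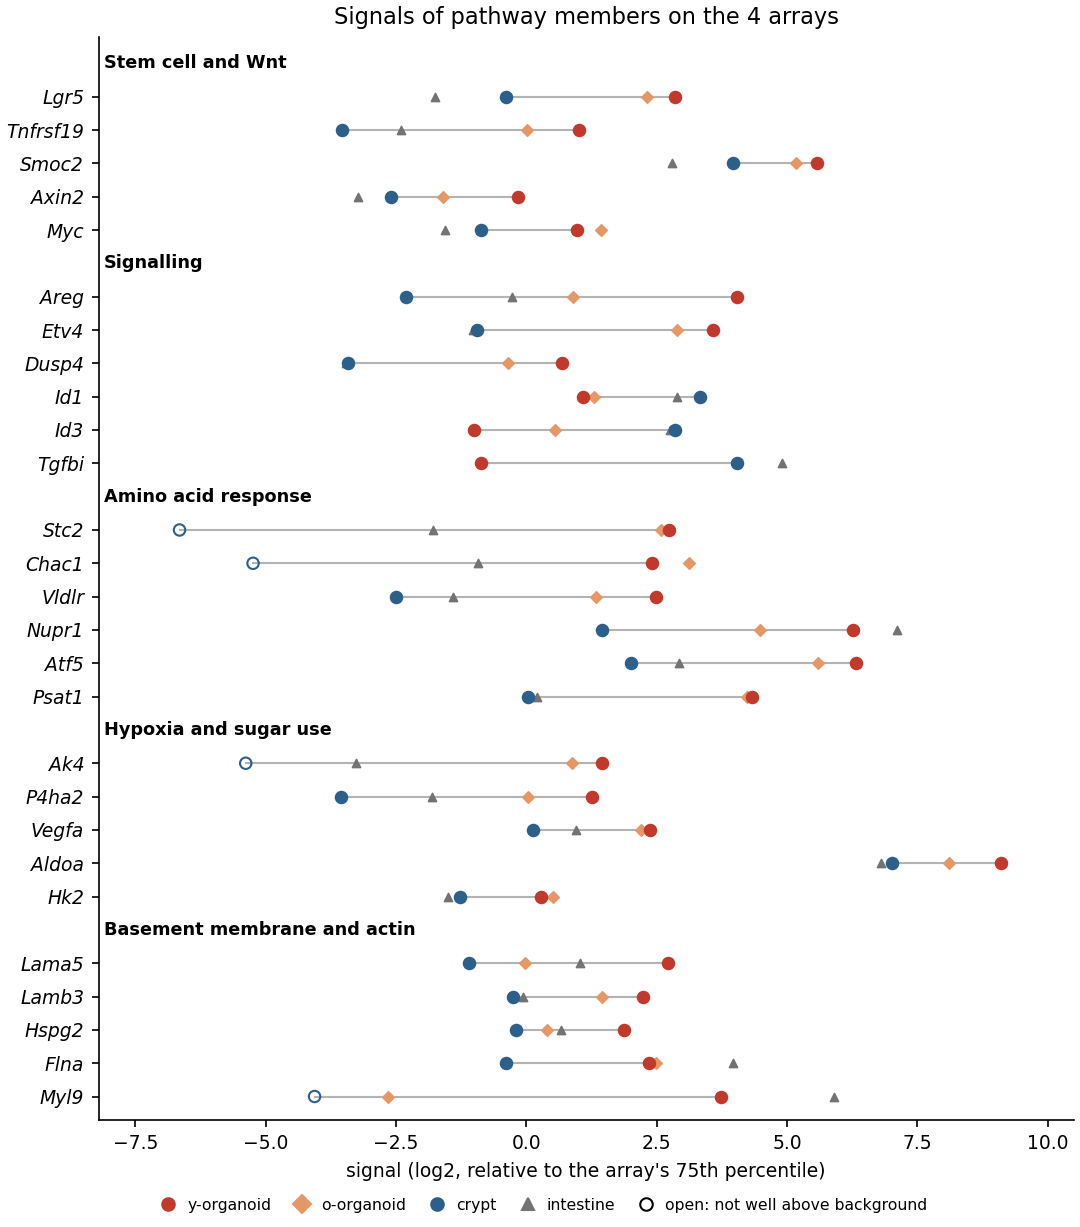
Signals (log2, relative to the 75th percentile of each array) of named genes in 5 groups on y-organoid, o-organoid, crypt and intestine, with a grey line between y-organoid and crypt. Open symbols were not well above background. Lgr5, Etv4, Stc2 and P4ha2 are right of crypt on both organoid arrays, and Id1, Id3 and Tgfbi are left of it.

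Genes of the amino acid response were higher on y-organoid. ATF4 is a transcription factor made when amino acids run short or the endoplasmic reticulum (ER) is stressed, and it drives genes for amino acid synthesis, uptake and transfer RNA charging. Of 28 measured members 19 were higher and 1 lower, with a median of 1.39. Psat1, an enzyme of serine synthesis, had 4.32 on y-organoid and 0.03 on crypt, with 4.23 on o-organoid and 0.20 on intestine. Atf5, a related factor, had 6.33 and 2.0, and Nupr1, a stress-induced chromatin protein, 6.26 and 1.45. On o-organoid they read 5.60 and 4.48, also above crypt, but Nupr1 read 7.11 on intestine. The intestine array also held transcripts of pancreatic acinar cells, such as Ctrb1 at 10.21 against -2.33 on crypt. Their part in intestine values was not tested. Mthfd2 of mitochondrial folate metabolism differed by 3.44, the leucine transporter Slc7a5 by 3.55 with 1.37 in its other probe, Vldlr, a lipoprotein receptor, by 4.97 and the proline enzyme Pycr1 by 2.73. The lower member was Slc3a2, the heavy chain that pairs with Slc7a5, with 4.03 and 5.03.

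Promoters are shown because members of this list were high together. The composite C/EBP-ATF element was searched as TGATGNAA on both strands in 250 bases before and 50 bases after the start site (RefSeq, GRCm38.p6). It was found in 11 of the 26 members with a promoter in the table (42.3%), against 3.97% of all 32851 promoters. A member counted if any of its promoters matched, while the share of all was taken per promoter, so the shares differ in unit. The members were listed as genes of the ATF4 response, so their share is not independent of that choice. The match stands in capitals, read on the opposite strand in these 2.
Chac1 promoter, chr2:119350992-119351291, plus strand: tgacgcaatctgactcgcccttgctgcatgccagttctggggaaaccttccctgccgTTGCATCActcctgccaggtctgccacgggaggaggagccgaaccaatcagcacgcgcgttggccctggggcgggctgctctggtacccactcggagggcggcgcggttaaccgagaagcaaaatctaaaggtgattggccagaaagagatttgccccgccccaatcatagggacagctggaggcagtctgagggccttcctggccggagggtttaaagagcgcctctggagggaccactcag
Vldlr promoter, chr19:27216770-27217069, plus strand: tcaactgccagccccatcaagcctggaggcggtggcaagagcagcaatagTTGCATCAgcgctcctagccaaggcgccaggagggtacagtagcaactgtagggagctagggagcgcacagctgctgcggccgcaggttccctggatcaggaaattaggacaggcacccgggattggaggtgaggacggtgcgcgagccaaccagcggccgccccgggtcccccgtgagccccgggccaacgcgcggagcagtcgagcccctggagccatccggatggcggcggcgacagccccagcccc
The first match base lay 193 bases before the start in Chac1 and 200 bases before it in this promoter of Vldlr. A match is a description of letters, not of binding.

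Genes of hypoxia and sugar breakdown were higher too. Of 21 measured hypoxia genes 13 were higher and 0 lower, with a median of 1.72, although Stc2 counts in both this and the ATF4 list. The mitochondrial adenylate kinase Ak4 was at least 63.1-fold higher, Ero1a, an ER oxidase, had 0.32 on y-organoid and -3.03 on crypt, and Vegfa, the vessel growth factor, had 2.38 and 0.12. Of 21 glycolysis genes 10 were higher and 1, Pfkfb4 (-1.68), was lower. Aldoa, the muscle-type aldolase, had 9.10 and 7.01, and Hk2, hexokinase, 0.29 and -1.28. Subunits of oxidative phosphorylation were lower as a group: of 36, 14 were lower, 0 higher, and the median was -0.88. Cox7a1 of complex IV had 2.63 and 6.44, a difference of -3.81. Ndufa1 of complex I had a difference of -1.91 and Cyc1 of complex III -1.18.

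Ribosomal protein genes were slightly higher as a block. All 36 had a positive difference, 0.40 to 1.67, with a median of 0.79 and 5 higher by 2-fold or more. Rps15 had 8.25 on y-organoid and 6.58 on crypt, and Rpl13 8.91 and 7.72. The block kept its sign under median scaling, with a median of 0.28, and turned it under the spike-in scale. Cholesterol synthesis had 12 of 24 genes higher and 1 lower, with a median of 0.98. Insig1, a sterol sensor, differed by 2.70 and Sqle, squalene epoxidase, by 1.54, while the sterol isomerase Ebp had -1.26. Of 18 fatty acid synthesis genes 7 were higher and 2 lower. Acaca and Acly, which supply malonyl-CoA and acetyl-CoA, differed by 1.28 and 1.26, and Elovl6, an elongase, by -1.69. Of the fatty acid desaturases, Scd2 differed by 2.91 and Scd1 by 2.01.

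Fatty acid oxidation was lower. Of 30 measured PPAR targets and oxidation genes 24 were lower and 1 higher, with a median of -1.52. Cpt1a, which admits fatty acids to mitochondria, had 0.54 on y-organoid and 2.88 on crypt. Pdk4, a brake on pyruvate dehydrogenase, was lower by a bound of -4.49, and Cyp4a10 had -4.04. The higher one was Pparg, 1 of the PPAR receptors, with 2.69 and 0.74. ER chaperones and Xbp1 targets were lower as well, 13 of 25 and 0 higher, median -1.02: Creld2 had 2.39 and 4.38, P4hb, protein disulfide isomerase, 3.66 and 5.58, and Manf 1.03 and 2.83. Heat shock genes had 4 of 19 lower and 1 higher, with the co-chaperone Hsph1 at 1.46 and 3.47.

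Cell division genes differed little. Of 31 DNA replication genes 1 was higher, E2f1 (1.08), and 1 lower, Slbp (-1.42, with 0.08 in its other probe), with a median of 0.13. Of 28 mitosis genes 0 were past 2-fold in either direction, and the median was 0.10. Top2a, the topoisomerase of dividing cells, had 0.98 on y-organoid and 1.55 on crypt, and cyclin B1 (Ccnb1) 2.67 and 2.04. On intestine both were dimmer, at -0.49 and 0.74. Cdkn2b, an inhibitor of the cycle, had 1.0 and 3.07.

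Digestive enzymes and fat uptake genes were lower. All 22 measured brush border enzymes were lower, with a median of -4.17 and a range of -8.85 to -1.28. The protease subunit Mep1b had 1.14 on y-organoid and 6.53 on crypt, and the peptidases Ace, Mme and Enpep had differences of -4.91, -4.90 and -4.57. On o-organoid these 3 read -0.28, -0.58 and 0.15, each above y-organoid and below crypt. Of 24 genes of fat uptake and chylomicron assembly 23 were lower. Fabp2, the intestinal fatty acid-binding protein, had 4.75 and 9.04, a difference of -4.29. Apoa4 and Apoa1, apolipoproteins of chylomicrons, had 0.06 and 0.43 on y-organoid and 6.26 and 6.23 on crypt. Scarb1, a lipoprotein receptor, was the higher one, with 0.85 and -1.47.

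The scaffold of the microvilli was lower too, 13 of 21 with 1 higher and a median of -1.86. The protocadherins Cdhr5 and Cdhr2, which tether microvilli to each other, had 1.62 and 4.49 on y-organoid and 5.25 and 6.70 on crypt. Myo1a, the motor that ties the actin core to the membrane, had 4.04 and 6.42. Ileal uptake of bile acids and cobalamin had 9 of 11 lower and 0 higher. The bile acid exporter subunits Slc51a and Slc51b had 1.11 and -2.43 on y-organoid and 5.42 and 2.43 on crypt, and guanylin and uroguanylin (Guca2a and Guca2b), peptides that steer fluid secretion, had differences of -2.08 and -3.74. Among factors of region and identity 2 of 18 were higher and 4 lower: Isx, an intestinal regulator of retinoid genes, had 0.52 and 4.45, Hnf4g, a factor of enterocytes, -0.82 and 1.81, and Meis2 differed by 2.33 the other way. Klf4, a factor of differentiated epithelium, had -0.46 and 1.91, and Klf5, a factor of dividing crypt cells, 3.35 and 4.50.

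Transporters followed with a split among those for amino acids. Of 20 sugar genes 14 were lower and 1, the glucose transporter Slc2a1, found in many cell types (1.73), was higher, while Slc2a5, for fructose, had 1.10 on y-organoid and 4.13 on crypt and Slc2a2 -0.48 and 2.82. Of 23 amino acid and peptide transporters 12 were lower and 6 higher. Lower were the apical carriers Slc6a19 (-4.55) and Slc7a9 (-4.31) and the peptide carrier Slc15a1 (a bound of -3.84), which take up the products of digestion. Higher were Slc7a5 and Slc7a3, Slc7a3 by at least 4.54 through a probe brighter on y-organoid alone. For retinoids 11 of 17 were lower, led by Rbp2, and Rbp4, the plasma carrier, was higher by 2.0. In iron handling, Cybrd1, the duodenal ferric reductase, had 0.60 and -3.62, Slc46a1, a folate carrier also called heme carrier, 1.57 and 5.17, and Tfrc, the transferrin receptor, -0.19 and 1.84, though its 2 other probes had a median of 0.06. In ion and water transport Slc9a3, the sodium-proton exchanger of villus cells, had -1.29 and 3.19, and the water channels Aqp8 and Aqp3 were lower by bounds of -7.31 and -5.94. Cftr, the chloride channel of crypts, had 0.96 and -1.82, through a probe brighter on y-organoid alone, and the chloride channel Ano1 had -0.11 and -2.24.

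Paneth and goblet cell genes were lower, and enteroendocrine genes largely were not. Of 12 measured alpha defensins, antimicrobial peptides of Paneth cells, 10 were lower and 0 higher, with a median of -3.82. The summed linear signal of the list fell less far, with 1820 on y-organoid and 5097 on crypt. Defa1 and Defa23, the brightest on y-organoid, differed by -0.20 and -0.61. Their other probes gave -1.02 (a median) and -2.66. Defa1 and Defa23 were named after their values were seen. Defensin genes are near-identical copies, so values of single members are uncertain. Lyz1, Paneth lysozyme, had 5.91 on y-organoid and 8.03 on crypt, and Mmp7, which activates defensins, -0.33 and 3.81. On o-organoid Mmp7 read 2.79. Of 14 Reg lectins and other antimicrobial genes 6 were lower and 2 higher. Reg3g and Reg1 had 1.27 and 4.45 on y-organoid and 5.86 and 7.74 on crypt, and Dmbt1, a secreted scavenger receptor, 3.46 and 8.43. The 2 higher ones, the peptidoglycan-binding Pglyrp1 (1.36) and the siderophore-binding Lcn2 (1.21), are not Reg lectins. Of 10 Paneth granule genes 7 were lower and 2 higher, Nupr1 (4.81) and Sntb1 (1.05). Of 25 goblet genes 16 were lower and 2 higher: Agr2, which folds mucins, had 3.77 and 6.47, Muc3 differed by -6.13, and the higher ones were the trefoil peptide Tff2 (1.60) and St6galnac1, whose 4.34 was read by a GA-repeat probe against 0.76 in its other probe. Fcgbp disagreed between probes, -2.75 and 1.25. So did Clca1, a goblet gene counted as within 2-fold, with 0.61 in the probe read here and -6.68 in its other probe. Clca1 was named after its values were seen.

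Of 25 enteroendocrine hormones and granins 3 were higher and 4 lower, with a median of 0.26, which turns to -0.25 under median scaling. Secretin (Sct) had 2.74 on y-organoid and 5.56 on crypt, neurotensin (Nts) -2.91 and 1.20, and substance P (Tac1) 2.36 and 1.26. Of 18 factors of this lineage 8 were higher and 0 lower: Neurog3, its founding factor, had 3.0 and 1.65, and Sox4 3.90 and 1.52, with 2.04 as the median of its other probes. Tuft cell genes had 5 of 22 higher and 1 lower. Dclk1, the usual tuft cell marker, differed by 2.76 through a probe brighter on y-organoid alone and by 1.20 in the median of 2 other probes, and Trpm5, its taste channel, by 1.0.

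Cytochrome P450 genes were mostly lower, and other genes that act on foreign compounds were split. Of 32 cytochrome P450 genes 22 were lower and 2 higher, Cyp2d34 and Cyp17a1, with a median of -2.27. Cyp3a11 had -1.45 on y-organoid and 5.09 on crypt, with 2.23 on o-organoid, and its probes gave differences of -6.54 and -4.99. Cyp2b10 read 4.59 on o-organoid, between y-organoid and crypt. Higher were the sulfotransferase Sult1c2, with 4.37 and -0.23, the glutathione transferase Gsta3, by 3.53 and by 3.29 in its other probe, and the carbonyl reductase Cbr3, by 4.48. Of 40 conjugating enzymes 18 were lower and 5 higher: Ugt2a3, a glucuronosyltransferase, had -1.94 and 2.88, and the hydrolases Ephx2 and Ces2a differed by -3.24 and -2.73. Ugt2b5 read 2.82 on o-organoid, above both y-organoid at -1.63 and crypt at 1.76. Among membrane pumps 8 of 18 were lower and 3 higher. The sterol exporter subunits Abcg5 and Abcg8 had differences of -3.70 and, as a bound, -3.72, and Abca1, which loads cholesterol on lipoproteins, a bound of -2.88. The multidrug pumps Abcc4, Abcc5 and Abcc1 were the 3 higher ones, by 3.13, 2.03 and 1.94. Of 24 nuclear receptors 6 were lower and 1, the retinoic acid receptor Rarg (3.29), was higher, with the sterol sensor Nr1h3 at -2.39 and the vitamin D receptor Vdr at -1.91. Antioxidant genes were split, 7 of 31 higher and 5 lower: Hmox1, heme oxygenase, differed by 1.37, and Gpx1 and Prdx1, which remove peroxides, by -2.18 and -1.67. Arginine and urea genes were split as well. Otc, which makes citrulline, had 0.18 and 2.75, and its other probe differed by -3.13. Arg2, mitochondrial arginase, had -1.30 and 4.23.

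Metallothioneins are small proteins that bind zinc and copper. Of 15 metallothionein and zinc genes 3 were higher, Mt2, Mt1 and Mt4, and 3 lower, with a median of -0.45. Mt2 had 9.79 on y-organoid and 4.43 on crypt, 41.1-fold higher, with 9.02 on o-organoid and 7.32 on intestine. Mt1 had 9.64 and 6.66, with 8.62 on o-organoid and 8.60 on intestine, and both of its probes differed alike, by 2.98 and 3.11. Crypt was the lowest of the 4 arrays for both genes. Mt4 was higher by at least 6.34, and Mt3 had a difference of -0.52. The zinc importers Slc39a4 and Slc39a5 had differences of -3.27 and -2.84. The Mt2 promoter is shown because metal-response elements there are well known. The loose pattern TGCNCNC, with any base at N, was searched on either strand. It stood 6 times in this promoter, in capitals, and at least 3 matches were found in 7.10% of all promoters. The pattern is broad, so not every match need be such an element.
Mt2 promoter, chr8:94172368-94172667, plus strand: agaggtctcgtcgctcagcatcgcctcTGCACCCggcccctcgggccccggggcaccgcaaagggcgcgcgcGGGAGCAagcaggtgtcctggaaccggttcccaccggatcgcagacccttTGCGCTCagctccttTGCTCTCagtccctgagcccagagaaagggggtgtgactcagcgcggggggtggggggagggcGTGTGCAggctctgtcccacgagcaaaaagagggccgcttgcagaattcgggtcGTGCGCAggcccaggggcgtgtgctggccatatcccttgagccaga

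Prostaglandin genes were split in a list of 13, with 4 lower and 2 higher. Hpgd, which breaks prostaglandins down, had -0.75 on y-organoid and 1.73 on crypt, and Slco2a1, which imports them, -1.18 and 1.73. Pla2g5, a phospholipase that frees their precursor, had 1.55 and -1.32.

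Antigen presentation was far lower on y-organoid. MHC class II presents extracellular peptides to helper T cells, and MHC class I with the immunoproteasome presents peptides made inside the cell; both are induced by interferon. Of 8 measured class II genes 7 were lower and 0 higher, with a median of -4.13. H2-Ab1 had -3.22 on y-organoid and 4.55 on crypt, and its probes gave differences of -7.76 and -7.43. Cd74, the invariant chain, had -3.33 and 3.23. H2-Eb1 was at least 180-fold lower. On o-organoid H2-Ab1 and H2-Eb1 were not well above background, and on intestine both stood above crypt. Of 20 class I and immunoproteasome genes 16 were lower and 1, H2-M3 (1.51), was higher, median -2.40: the immunoproteasome subunit Psmb8 had -1.59 and 3.53 and the peptide pump subunit Tap1 -3.90 and -0.56. Of 34 interferon-stimulated genes 19 were lower and 3 higher, with a median of -1.45. Irf1, a factor induced by interferon gamma, had -0.36 and 4.38, Zbp1, a nucleic acid sensor, -4.09 and 0.38, and the GTPases Irgm2 and Igtp -2.84 and -2.78 in difference. The 3 higher ones were Bst2 (1.16), Isg20 (1.43) and Gbp6 (6.47), through the GA-repeat probe shown above.

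Some immune cell genes were lower beside these. Of 18 immune markers 6 were well above background on y-organoid and 15 on crypt, and 7 of 14 measured were lower. Gzma, a granzyme of intraepithelial lymphocytes, was at least 148-fold lower, Ccl5, a chemokine of T cells, had a bound of -6.22, and Gzmb, another granzyme, 1 of -2.80. Lyz2, a myeloid lysozyme, and Tyrobp, a myeloid adaptor, had bounds of -2.79 and -1.49. Other myeloid genes went the other way within 2-fold: Csf1r differed by 0.74 and Itgam by 0.61. Their other probes gave 0.36 (a median) and 0.44. The 6 markers well above background on both arrays had a median of -0.40. The summed linear signal of the list was 44.3 on y-organoid and 42.5 on crypt, most of it from Itgam at 5.31 and 4.69 on the log2 scale. The defining markers Jchain and Cpa3 were dim on both arrays. Ptprc was below background on y-organoid and at -4.09 on crypt, a bound of only -0.11. Itgam, Ptprc, Jchain and Cpa3 were named after their values were seen. The part of immune cells in the lower antigen presentation was not tested. Of 9 chemokine genes 5 were lower and 1 higher, Cxcl16 (2.28). Ccl6 had 0.04 and 4.79, and Ccl25, which draws T cells to the small intestine, had 5.64 and 7.05 in the probe read here but a median difference of 0.84 in its 3 other probes. In the Toll-like and NF-kB list 7 of 20 were lower and 2 higher. Myd88 and Ticam1, adaptors of Toll-like receptors, differed by -1.61 and -1.49. Il18, a cytokine made by enterocytes, had -1.43 and 3.45.

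Promoters of Igtp and H2-Eb1 are shown for elements of these pathways. The interferon-response core (GAAA, any 2 bases, GAAA) on either strand was found in 18 of 29 interferon-stimulated members with a promoter in the table (62.1%), against 3.44% of all. The Y box CTGATTGG was found in 4 of 11 class II members (36.4%), against 4.10% of all. They were H2-Aa and H2-Eb1, both lower on y-organoid, and H2-Eb2 and H2-Oa, both dim on both arrays. These were named after their values were seen. Members were listed for their pathway, so the shares with either element are not independent of that choice. As above, shares of members are per gene and shares of all are per promoter.
Igtp promoter, chr11:58199306-58199605, plus strand: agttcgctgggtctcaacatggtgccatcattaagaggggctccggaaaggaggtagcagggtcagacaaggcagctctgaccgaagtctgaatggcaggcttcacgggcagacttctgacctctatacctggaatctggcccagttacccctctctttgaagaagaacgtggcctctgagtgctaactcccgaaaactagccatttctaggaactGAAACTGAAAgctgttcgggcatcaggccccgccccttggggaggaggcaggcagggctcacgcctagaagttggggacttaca
H2-Eb1 promoter, chr17:34305617-34305916, plus strand: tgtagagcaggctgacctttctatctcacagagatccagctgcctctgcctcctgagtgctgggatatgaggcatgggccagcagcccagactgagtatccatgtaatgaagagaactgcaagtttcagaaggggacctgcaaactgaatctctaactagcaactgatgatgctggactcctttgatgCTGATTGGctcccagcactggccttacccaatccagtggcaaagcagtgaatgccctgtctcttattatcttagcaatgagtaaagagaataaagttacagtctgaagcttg
In H2-Eb1 the match began 62 bases before the start, and in Igtp 34 bases before it.

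**Figure D5:**
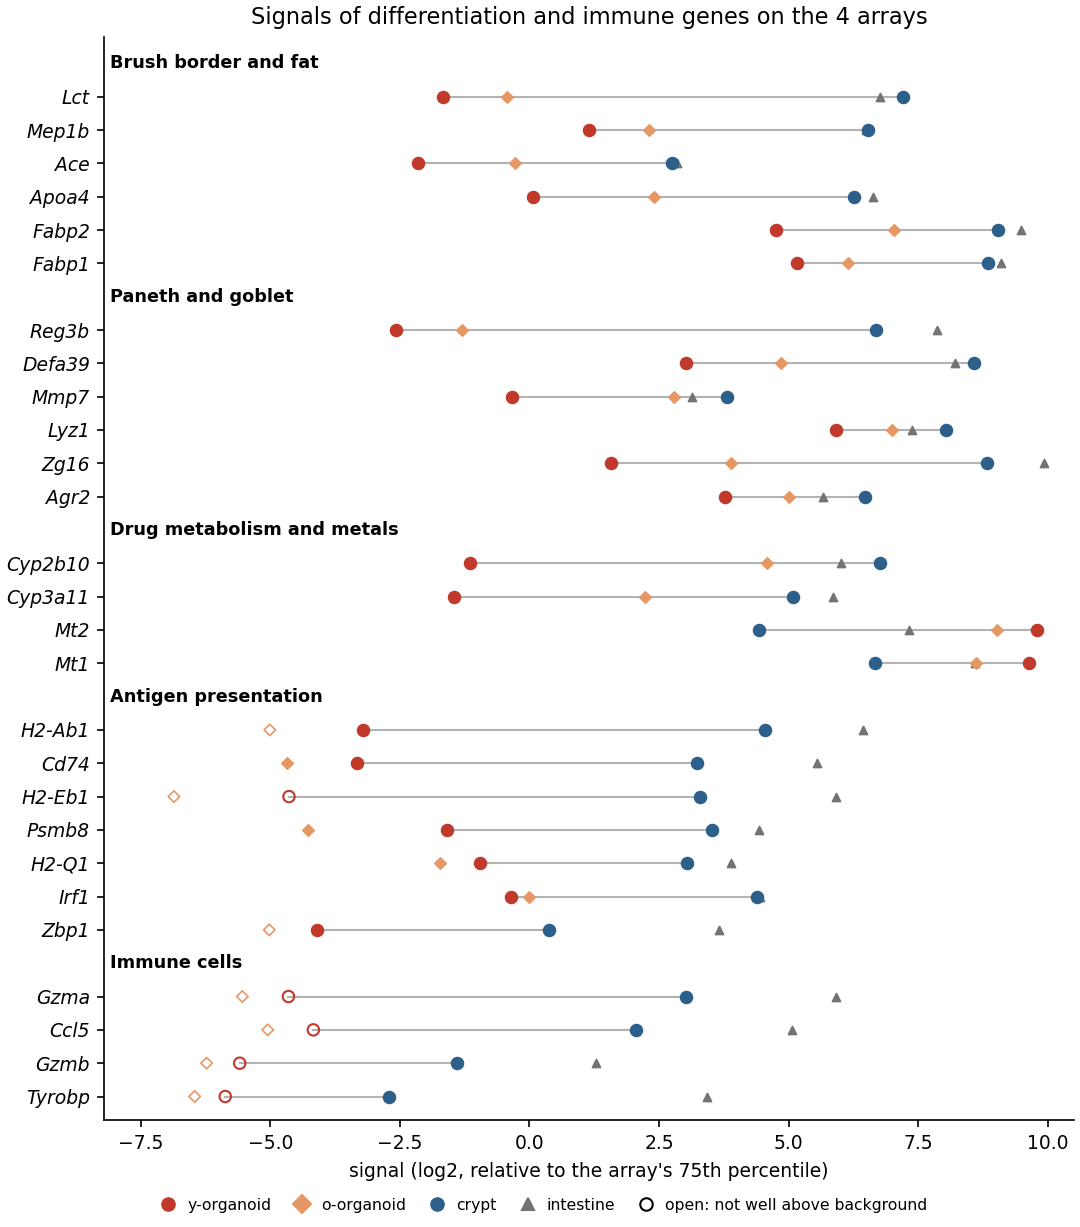
Signals (log2, relative to the 75th percentile of each array) of named genes in 5 groups on y-organoid, o-organoid, crypt and intestine, with a grey line between y-organoid and crypt. Open symbols were not well above background. All genes shown but Mt2 and Mt1 are left of crypt on y-organoid.

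Basement membrane and adhesion genes were higher. Of 20 measured integrins, laminins and collagens 9 were higher and 2 lower, with a median of 0.95. Lama5, the main laminin chain of adult epithelium, had 2.71 on y-organoid and -1.09 on crypt, with -0.03 on o-organoid and 1.03 on intestine. Lamb3 and Lamc1 differed by 2.48 and 2.15, the proteoglycan Hspg2 by 2.07 and the integrin chain Itgb1 by 1.47. The lower ones were Lama3 (-1.13) and Itga3 (-1.10). The actin group was mixed: Flna, filamin, had 2.36 and -0.38, the skeletal muscle actin Acta1 2.32 and -2.55, Myl9 3.73 and -4.06, and Tpm2 was lower by a bound of -2.22. Myl9 read -2.66 on o-organoid and 5.90 on intestine, so the 2 organoid arrays stood far apart. Of 24 junction genes 1 was higher and 6 lower, among them occludin (Ocln) with -1.11 and 0.81. Its difference was -1.92 in this probe and -0.51 in its other probe. The lower Cdh17, Marveld3 and Dsp also had other probes within 2-fold, at -0.34, 0.36 and 0.26. The remaining lower ones, Gjb1 (-1.47) and Cldn15 (-1.05), had 1 probe each. The higher one, the tight junction gene Cldn8, had -0.34 and -4.13.

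Acetylcholine outside neurons is the subject of the series' title. Of 13 measured genes of its synthesis and transport 4 were higher and 4 lower, with a median of -0.10, and 6 more were dim on both arrays. Acetylcholine is made from choline by Chat, taken apart by the cholinesterases and sensed by muscarinic and nicotinic receptors. Chat and the choline carrier Slc5a7 were not well above background on either array. Crat, carnitine acetyltransferase, was lower by a bound of -2.66, and the choline carrier-like gene Slc44a4 had -0.57 on y-organoid and 0.74 on crypt. Slc44a2 and Slc44a1 were higher, by 1.96 and 1.56. Butyrylcholinesterase (Bche) had 2.91 and 3.99, and Ache was well above background on y-organoid alone, with a bound of 0.48. Of 5 muscarinic receptors 3 were dim on both arrays. Chrm3 had -1.49 on y-organoid and was not well above background on crypt, a bound of 3.03, and Chrm1 a bound of -1.26. Of 16 nicotinic subunits 10 were dim on both, and of 6 measured 1 was past 2-fold, Chrna10, with -3.64 and -2.42.

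Immediate early genes, which answer within minutes to growth factors or handling, were lower on y-organoid in 9 of 23 and higher in 2. Fos had -3.85 on y-organoid and 2.22 on crypt, 67.2-fold lower, Fosb -3.77 and 0.21, and Egr1 -1.10 and 1.36. Among p53 targets 9 of 22 were higher and 4 lower: Phlda3, an Akt inhibitor, had 2.90 and -1.93 and Gdf15, a stress cytokine, 3.06 and -1.33, whereas Cdkn1a, the best known, had 2.88 and 2.49 and the death receptor Fas -3.04 and 0.54. In the circadian clock Arntl had -1.76 and 0.74, and its repressors Per1 and Per2 had 2.0 and -1.88 on y-organoid and 0.0 and -3.68 on crypt. The Y-linked genes Eif2s3y and Ddx3y were well above background on both arrays, at 1.28 and 0.09 on y-organoid and 1.08 and -1.04 on crypt, and Xist was dim on both. On intestine Ddx3y and Eif2s3y were not well above background, at -6.54 and -6.22, and Xist was, at -1.17, so the intestine array differed from the other 3 in these genes.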

How the data were processed

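RNA was isolated by acid guanidinium and phenol-chloroform and carried the dye Cy3, per the labels' protocols, and each sample went on 1 array of the same design on 1 slide. The deposited scanner files give spot intensity, processed with Agilent Feature Extraction 10.7.3.1 per the file headers, which also give probe coordinates in build mm9. A second deposited table was checked to hold, for each probe, a ratio on a linear scale: the processed intensity over 1 constant per array (25.16 on y-organoid, 29.45 on crypt), with a median of 1.0 per column.

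Of the spots, 1377 controls were left out. The processed signals were divided by the 75th percentile of the 43020 other spots of their array and put on the log2 scale from the deposited intensity. Outlier spots (154 on y-organoid, 108 on crypt) were left out, spots of a probe averaged, and where a gene had several probes the one brightest on average across all 4 arrays stood for it. Of 39408 probes, 27219 were named by accession, 3574 by symbol and 565 by synonym through RefSeq (GRCm38.p6, names only), and 8050 kept the name in the files. No spot was saturated, and 54.2% of spots on y-organoid and 51.9% on crypt were well above background. Precision is limited by having so few arrays, and p-values were not computed.

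The members and the 76 gene lists were chosen with earlier results of these data known. Named genes were drawn from the 15 largest differences and 8 largest bounds in each direction, the members of small lists (up to 12) and the 8 largest differences of each other list, the 10 largest differences read by a GA-repeat probe, Lgr5, all acetylcholine genes and genes of counts of 5 or fewer. List medians take in members measured on either array, bounds included. Alternatives were normexp background correction (offset 50, limma 3.58.1 in R 4.3.3), median scaling, quantile normalization, no filter on dim probes, the median over all probes of a gene, leaving out GA-repeat probes or probes brighter on y-organoid alone, a 2-fold threshold and, added after the data were seen, spike-in scaling. The steps were tested on simulated data. A few genes are not reported here.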

Additional observations from a re-analysis of the deposited data

How the results depend on the processing

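Of the 76 lists, 23 had a median difference of at least 2-fold, and 22 of these kept their sign under all 7 settings other than the spike-in scale and the 2-fold threshold. The exception was chemokine ligands, whose median of -1.40 became 0.13 with no filter on dim probes. In 13 of the 23 the median stayed past 2-fold under all 7. Of the lists with a smaller median, 22 changed sign under at least 1 of them. Of the 470 named genes with a difference of at least 2-fold, 2 changed sign: Ccl25 had -1.40, and 0.61 as the median over all probes, and Cd300lf had 5.99, and -0.89 as the median over all probes, without repeat probes and without probes brighter on y-organoid alone. The 592 higher genes were 257 after normexp background correction, 291 with median scaling, 1452 with no filter on dim probes, 80 with spike-in scaling and 2382 at the 2-fold threshold. The 591 lower genes were 1057 with median scaling, 968 with no filter, 4403 with spike-in scaling and 1980 at 2-fold, and 444 after normexp. The other settings gave 500 to 564 higher and 568 to 615 lower. The 7 spike-in RNAs well above background on both arrays were 0.86 brighter on y-organoid (0.67 to 0.90), while its 75th percentile was lower by 0.74 on the log2 scale; the cause was not tested. No paired analysis was possible because each group has 1 array. Genes dim on both arrays (12916) could not be read at this signal over background.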
